A study of Mus musculus with 6 samples.

Results

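The 43 genes of fatty acid oxidation and triglyceride turnover were followed by RNA-seq in mouse C3H10T1/2 cells before and 7 days after the switch to osteogenic medium. They were chosen by name for the step they serve, among 55401 genes of the count table, of which 29043 had at least 1 count. The set holds 5 acyl-CoA synthetases, 3 genes of the carnitine shuttle, 12 enzymes of mitochondrial β-oxidation, 3 genes that pass electrons on from the acyl-CoA dehydrogenases, 4 genes of peroxisomal β-oxidation with catalase, 6 genes of fuel switching and fatty acid carriage, 3 lipases, 5 enzymes of triglyceride synthesis and 2 lipid droplet coat proteins. Each member had at least 1 count in some library, 38 of 43 had 10 or more counts in every library, and 39 passed the filter on low counts and were tested. The 4 that did not pass were Acsl6, Ucp2, Ucp3 and Fabp3.

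Long-chain fatty acids are activated to acyl-CoA by the acyl-CoA synthetases, carried into mitochondria by the carnitine shuttle and shortened there by β-oxidation, whose electrons reach the respiratory chain through the electron transfer flavoprotein. Surplus acyl-CoA is esterified to glycerol and stored as triglyceride in lipid droplets, from which lipases release it again. Mesenchymal cells can become osteoblasts, which draw on fatty acids as a fuel, or adipocytes, which store them.

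C3H10T1/2 is an established line of mouse mesenchymal cells. The study compared derivative cells that carried a control hairpin (shControl, wild-type genotype), a hairpin against Nfib, which encodes the transcription factor nuclear factor I B (shNFIB, NFIB knockdown), or a hairpin against Kmt2a, which encodes the histone H3 lysine 4 methyltransferase MLL1 (shMLL1, MLL1 knockdown). RNA was taken from untreated cells at day 0 and from cells in osteogenic medium at day 7. The medium held dexamethasone at 0.1 μM, β-glycerophosphate at 20 mM and ascorbic acid 2-phosphate at 100 μg/mL. Dexamethasone is a glucocorticoid, so the glucocorticoid and the differentiation signal cannot be told apart at day 7. No library came from untreated cells at day 7, so the medium and the time in culture cannot be told apart either. Each of the 6 conditions was sequenced as 1 library, with 1 hairpin line for each knockdown. The p-values over the 3 lines therefore set the day difference against its spread between lines, which also differ in their hairpin.

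The libraries held between 21608680 (shMLL1 at day 7) and 34774066 (shNFIB at day 0) counts, and the members took between 0.270% and 0.369% of them. Nfib was at 116, 35.3 and 65.5 CPM (counts divided by the TMM-scaled library size) in shControl, shNFIB and shMLL1 at day 0 and at 83.5, 8.15 and 72.7 CPM at day 7, lowest in the shNFIB library on both days. Kmt2a was at 74.7, 86.5 and 30.9 CPM at day 0 and at 66.3, 94.0 and 34.8 CPM at day 7, lowest in the shMLL1 library on both days. Of the osteoblast markers Bglap was at or below 0.43 CPM and Ibsp had no count in any library, while Runx2 was at 32.8, 31.4 and 32.2 CPM at day 0 and at 117, 30.4 and 35.3 CPM at day 7, and was highest in shControl at day 7.

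Pdk4 and Acsl3 had the smallest adjusted p among the members that rose and those that fell, and the bases that precede their starts are shown. The stretches are RefSeq reference sequence on GRCm38.p6, read 5′ to 3′ on the strand of the gene, and capitals mark CpG dinucleotides. The Pdk4 stretch, chr6:5496310-5496528 on the minus strand, ends before the earlier of the RefSeq and GENCODE starts. The Acsl3 stretch is chr1:78657575-78657824 on the plus strand.
Pdk4: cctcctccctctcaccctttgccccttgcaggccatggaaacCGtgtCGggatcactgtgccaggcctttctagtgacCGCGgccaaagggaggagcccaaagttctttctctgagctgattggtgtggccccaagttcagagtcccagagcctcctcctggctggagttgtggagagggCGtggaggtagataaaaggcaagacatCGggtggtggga
Acsl3: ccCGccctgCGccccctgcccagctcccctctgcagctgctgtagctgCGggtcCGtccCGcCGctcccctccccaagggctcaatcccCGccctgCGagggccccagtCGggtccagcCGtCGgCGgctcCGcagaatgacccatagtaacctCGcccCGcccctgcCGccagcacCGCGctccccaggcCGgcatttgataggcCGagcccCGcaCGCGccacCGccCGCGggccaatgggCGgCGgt

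The Pdk4 stretch had 6 CpG in 219 bases and a GC content of 58.9%, and the Acsl3 stretch had 28 CpG in 250 bases and a GC content of 75.6%. RefSeq windows were found for 36 of the 43 members, 42 windows in all, and in the 250 bases before the start their median GC content was 60.2% against 52.4% over the 32851 windows of all genes. The median CpG count was 12 in the member windows and 6 in all windows. On both strands, no member window held the direct-repeat PPAR element (0.0335% of all windows did), a relaxed form that takes in the strict one (0.338%) or the palindromic glucocorticoid response element (0.387%). The E-box CACGTG was in windows of Lipe and Mgll (6.02% of all windows), and so was the FOXO element GTAAACA (3.17%). A match in such a window is a run of letters and no measure of binding.

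Levels can be compared between members per length of exon, as RPKM, which divides CPM by the length of the exons in kilobases. By mean RPKM over the 6 libraries Plin2, a coat protein of lipid droplets, was first at 115, followed by Etfa, a subunit of the electron transfer flavoprotein, at 100.4, catalase at 72.4, the thiolase Acaa2 at 60.0, Plin3, another droplet coat protein, at 52.7 and Acadl, the long-chain acyl-CoA dehydrogenase, at 51.6 RPKM. Plin2 ranged from 64.1 RPKM in shControl at day 0 to 270.3 RPKM in shNFIB at day 7, and Etfa only from 91.2 to 109 RPKM, so the order of these neighbours changed between libraries. Each further neighbour in this order also overlapped with the one above it across the libraries.

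**Figure D1:**
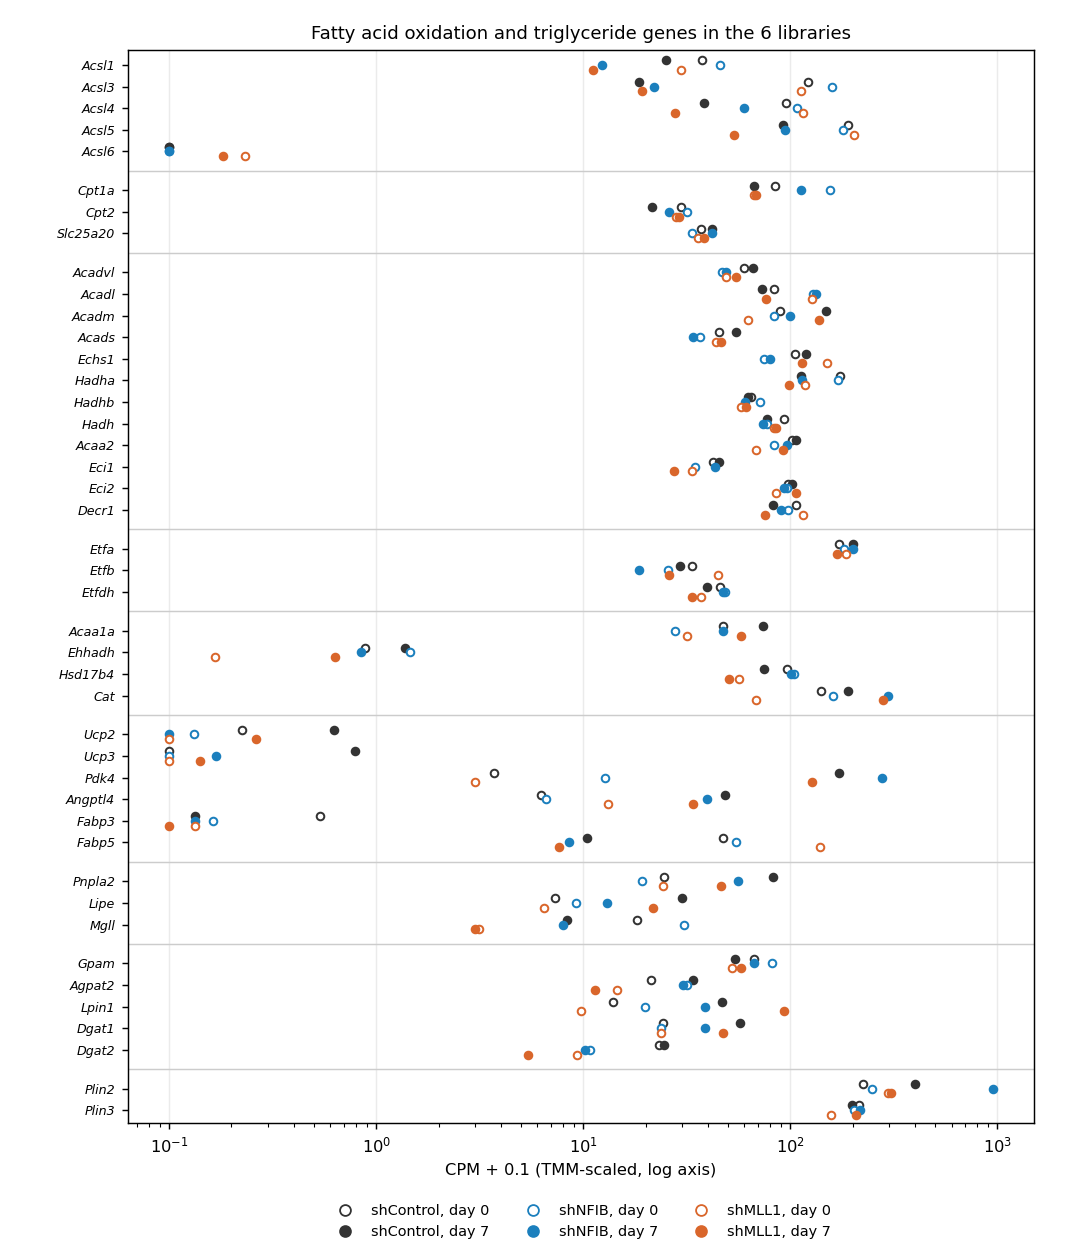
Level of each member in the 6 libraries as CPM + 0.1 on a log axis, 1 point per library, open at day 0 and filled at day 7, with members grouped by role and separated by lines. The open and filled points part widely for Pdk4, Angptl4, Fabp5 and Acsl3 and lie close together for most mitochondrial enzymes.

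Cells in osteogenic medium at day 7 were compared with untreated cells at day 0 over the 3 lines, to ask which members differed between the days whatever the hairpin. With the line as a block in edgeR's quasi-likelihood test, 9 of the 39 members tested rose and 5 fell at a Benjamini-Hochberg adjusted p under 0.05. Over all 16742 genes tested, 16.8% rose and 16.5% fell, and these shares also stand beside the counts by day of each smaller list below. The median log2 fold change was 0.04 over the members and 0.0080 over all genes, and the share of members called was near that of all genes. The 3 day 7 libraries lay above the 3 day 0 libraries for 11 of the tested members and below them for 7, against 23.7% and 20.9% of all genes tested, and overlapped for 21. Since RNA came from whole cultures, fewer cells of a kind and less RNA per cell cannot be told apart in any of these values.

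**Figure D2:**
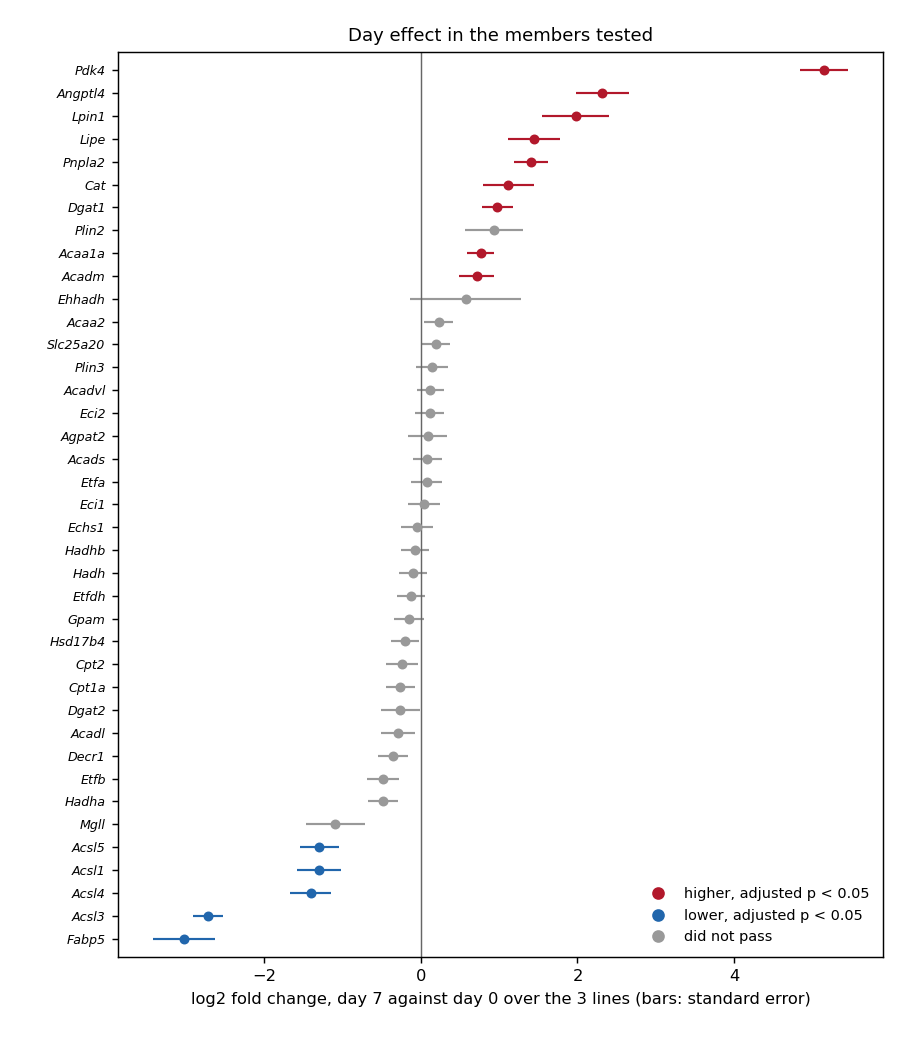
log2 fold change of the 39 tested members at day 7 against day 0 over the 3 lines, with standard errors as bars, in order of size. Red points rose and blue points fell at an adjusted p under 0.05 in edgeR's quasi-likelihood test, from 5.15 for Pdk4 to -3.02 for Fabp5, and grey points did not pass.

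The acyl-CoA synthetases, which activate fatty acids for every later use, fell together. All 4 synthetases that were tested passed, with a median log2 fold change of -1.35. Acsl3 (chr1:78657825-78707743), the synthetase found on the endoplasmic reticulum and on nascent lipid droplets, was at 122, 159 and 112 CPM in shControl, shNFIB and shMLL1 at day 0 and at 18.4, 21.9 and 19.1 CPM at day 7. The days did not overlap, and the 3 lines ended within a narrow range. Its log2 fold change was -2.71 ± 0.19 (SE, adjusted p = 0.000487).

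Acsl4, which prefers arachidonate and other polyunsaturated fatty acids, was at 95.4, 108 and 115 CPM at day 0 and at 38.2, 59.7 and 27.7 CPM at day 7. It was lower at day 7 in each line, least so in shNFIB, and its log2 fold change over the lines was -1.41 ± 0.26 (adjusted p = 0.00857). Acsl5, a synthetase of mitochondria and endoplasmic reticulum, was at 189, 179 and 202 CPM at day 0 and at 92.0, 93.8 and 53.1 CPM at day 7 (log2 fold change -1.30 ± 0.25, adjusted p = 0.0101). Per length it was the most abundant synthetase, at a mean of 27.7 RPKM over the libraries, and its days did not overlap.

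Acsl1, the synthetase best known from adipocytes, liver and heart, was at 37.4, 45.6 and 29.6 CPM at day 0 and at 25.0, 12.2 and 11.1 CPM at day 7. The shControl library kept the highest level at day 7, and the log2 fold change over the lines was -1.30 ± 0.28 (adjusted p = 0.0147). Acsl6, a synthetase of brain, had 4 counts in shMLL1 at day 0, 2 in shMLL1 at day 7 and none in the other libraries. The summed level of the synthetases was 444, 492 and 459 CPM at day 0 and 174, 188 and 111 CPM at day 7.

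None of the 3 genes of the carnitine shuttle passed the test. Cpt1a, the carnitine palmitoyltransferase that controls entry into mitochondria, was at 83.8, 156 and 67.0 CPM at day 0 and at 66.9, 113 and 67.9 CPM at day 7. It was highest in the shNFIB libraries on both days, and its days overlapped (log2 fold change -0.26 ± 0.19, adjusted p = 0.318). Cpt2, the inner-membrane transferase, ranged from 21.3 to 31.6 CPM over the 6 libraries and had a log2 fold change of -0.24 ± 0.20. Slc25a20, the carnitine-acylcarnitine carrier, ranged from 33.5 to 41.8 CPM and had a log2 fold change of 0.20 ± 0.18, with the 3 day 7 libraries just above those of day 0.

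Of the 12 mitochondrial β-oxidation enzymes 1 rose and none fell, and their median log2 fold change was -0.0023. The riser was Acadm, the medium-chain acyl-CoA dehydrogenase (chr3:153922357-153944632), at 89.1, 83.0 and 62.3 CPM at day 0 and at 149, 99.1 and 138 CPM at day 7. Its days did not overlap, and its log2 fold change of 0.71 ± 0.22 lay close to the threshold (adjusted p = 0.0470). The call was lost without the shControl line, without the shMLL1 line and without the line as a block. A fit with a line left out has 1 residual degree of freedom, against 2 with all lines. A call lost in such a fit need not mean a smaller change.

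Hadha, the α subunit of the trifunctional protein that carries out the later steps on long chains, was at 173, 169 and 117 CPM at day 0 and at 113, 113 and 98.0 CPM at day 7, and Decr1, a reductase for unsaturated chains, at 106, 97.1 and 115 CPM and then at 82.2, 90.3 and 75.3 CPM. Both were lower in each day 7 library than in each day 0 library, but neither passed (log2 fold change -0.48 ± 0.19, adjusted p = 0.0870 for Hadha and -0.36 ± 0.19, adjusted p = 0.179 for Decr1). The dehydrogenases Acadvl, Acadl and Acads had log2 fold changes of 0.12 ± 0.17, -0.29 ± 0.22 and 0.08 ± 0.18. For Hadhb, the other subunit of the trifunctional protein, the value was -0.08 ± 0.18, for Hadh, the short-chain hydroxyacyl-CoA dehydrogenase, -0.10 ± 0.18, and for the hydratase Echs1 -0.05 ± 0.20. The thiolase Acaa2 was at 0.23 ± 0.18 and the isomerases Eci1 and Eci2, which handle unsaturated chains, were at 0.04 ± 0.20 and 0.12 ± 0.18 on the same scale. The summed level of the 12 enzymes was 1061, 997 and 993 CPM at day 0 and 1047, 963 and 973 CPM at day 7.

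The electron transfer genes were close to level as well. Etfa was between 167 and 200.5 CPM in the 6 libraries, lowest in shMLL1 at day 7, and had a log2 fold change of 0.07 ± 0.20. Etfdh, the dehydrogenase that hands the electrons to ubiquinone, was at -0.13 ± 0.18. Etfb, the other subunit of the flavoprotein, was at 33.6, 25.5 and 44.5 CPM at day 0 and at 29.3, 18.5 and 25.9 CPM at day 7. Its days overlapped (log2 fold change -0.48 ± 0.20, adjusted p = 0.106).

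Peroxisomes shorten very long and branched chains and make hydrogen peroxide on the way, which catalase removes. Of the 4 peroxisomal members 2 rose. Cat, encoding catalase (chr2:103453849-103485160), was at 140, 160 and 68.1 CPM at day 0 and at 189, 297 and 281 CPM at day 7. The days did not overlap, the shMLL1 library at day 0 was the lowest of all, and the log2 fold change was 1.12 ± 0.33 (adjusted p = 0.0373).

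Acaa1a, the peroxisomal thiolase, was at 47.2, 27.6 and 31.7 CPM at day 0 and at 73.6, 47.4 and 57.9 CPM at day 7 (log2 fold change 0.76 ± 0.18, adjusted p = 0.0184). The difference was of like size in the 3 lines, and the lowest day 7 library was only just above the highest day 0 library. Both calls were lost without the shControl line and without the block, that of Cat also without the shMLL1 line and that of Acaa1a also without the shNFIB line. Within shNFIB and shMLL1 the log2 fold changes by day were 0.78 and 0.87 for Acaa1a and 0.90 and 2.05 for Cat. Hsd17b4, the D-bifunctional protein, was at 96.0, 104 and 56.6 CPM at day 0 and at 74.5, 100.1 and 50.2 CPM at day 7 and did not pass (log2 fold change -0.20 ± 0.18, adjusted p = 0.417). Ehhadh, the L-bifunctional enzyme, had 25, 43 and 2 counts at day 0 and 39, 22 and 13 counts at day 7 (log2 fold change 0.58 ± 0.71, adjusted p = 0.551).

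The largest changes of the set were in the genes of fuel switching and fatty acid carriage. Pdk4 (chr6:5483351-5496309) encodes pyruvate dehydrogenase kinase 4, which turns off pyruvate dehydrogenase and so spares glucose when fatty acids are burned. It was at 3.60, 12.7 and 2.92 CPM in shControl, shNFIB and shMLL1 at day 0 and at 172, 277 and 127 CPM at day 7. The shNFIB library was the highest on both days, and even the lowest day 7 library lay far above the highest day 0 library. The log2 fold change was 5.15 ± 0.31 (adjusted p = 0.000443), the largest of the members.

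Angptl4 (chr17:33773750-33781830) encodes angiopoietin-like 4, a secreted inhibitor of lipoprotein lipase. It was at 6.14, 6.52 and 13.0 CPM at day 0 and at 48.2, 39.4 and 33.8 CPM at day 7, so that the line with the highest start had the lowest end. The days did not overlap, and the log2 fold change was 2.32 ± 0.33 (adjusted p = 0.00380). Fabp5 (chr3:10012548-10016607), a fatty acid binding protein of the cytosol, was at 47.4, 54.3 and 139 CPM at day 0 and at 10.3, 8.39 and 7.50 CPM at day 7. It was lower at day 7 in each line, the shMLL1 library at day 0 was the highest of all, and the log2 fold change was -3.02 ± 0.40 (adjusted p = 0.00263).

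The remaining members of this group had few counts. Fabp3, the heart-type binding protein, reached 14 counts in shControl at day 0 and no more than 2 in each other library. Ucp2, a mitochondrial carrier, had 4, 1 and 0 counts at day 0 and 16, 0 and 4 counts at day 7. Ucp3, the related carrier of muscle and brown fat, had no count in the 3 day 0 libraries and 21, 2 and 1 counts at day 7. In shControl the lower limit of the 95% counting interval for the log2 fold change of Ucp3 at day 7 against day 0 was 2.45.

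Triglyceride is broken down by 3 lipases that act in turn, and the first and second of them rose. Pnpla2 (chr7:141455198-141460743), encoding adipose triglyceride lipase, was at 24.4, 19.2 and 24.1 CPM at day 0 and at 82.0, 55.6 and 45.9 CPM at day 7. The days did not overlap and the log2 fold change was 1.41 ± 0.22 (adjusted p = 0.00516). Lipe (chr7:25379527-25398710), encoding hormone-sensitive lipase, was at 7.23, 9.09 and 6.40 CPM at day 0 and at 29.8, 13.0 and 21.6 CPM at day 7 (log2 fold change 1.44 ± 0.33, adjusted p = 0.0182). For both genes the shControl library was the highest at day 7, and neither call held without the shControl line.

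Mgll, encoding monoglyceride lipase, the last of the sequence, was at 18.1, 30.4 and 3.05 CPM at day 0 and at 8.27, 7.85 and 2.91 CPM at day 7. It was lower at day 7 in shControl and shNFIB and level in shMLL1, where it was low on both days, and it did not pass (log2 fold change -1.09 ± 0.37, adjusted p = 0.0595). Mgll was called, and so was Plin2, without the shMLL1 line. The summed level of the lipases was 49.7, 58.7 and 33.5 CPM at day 0 and 120.1, 76.5 and 70.4 CPM at day 7.

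In triglyceride synthesis 2 of 5 members rose. Lpin1 (chr12:16535669-16610966), encoding the phosphatidate phosphatase lipin 1, which also acts as a transcriptional co-activator of fatty acid oxidation genes, was at 13.8, 19.9 and 9.64 CPM at day 0 and at 46.4, 38.5 and 93.3 CPM at day 7. The shMLL1 library was the lowest at day 0 and the highest at day 7, and the log2 fold change was 1.98 ± 0.43 (adjusted p = 0.0145). Dgat1 (chr15:76502015-76511953), one of the acyltransferases for the last step, was at 24.1, 23.6 and 23.7 CPM at day 0 and at 57.1, 38.4 and 47.2 CPM at day 7 (log2 fold change 0.98 ± 0.20, adjusted p = 0.0115). Its level before induction was nearly the same in the 3 lines, and its call was lost without the shControl line.

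Dgat2, the other acyltransferase of that step, did not pass (log2 fold change -0.26 ± 0.25, adjusted p = 0.449). The first enzyme of the pathway, Gpam, and the second, Agpat2, had log2 fold changes of -0.15 ± 0.19 and 0.09 ± 0.25. Plin2 was at 225, 246 and 295 CPM at day 0 and at 400, 949 and 304 CPM at day 7. Every day 7 library was above every day 0 library, by a wide margin in shNFIB and a narrow one in shMLL1, and the log2 fold change of 0.94 ± 0.37 did not pass (adjusted p = 0.0906). Plin3 was at 0.14 ± 0.21 on the same scale.

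**Figure D3:**
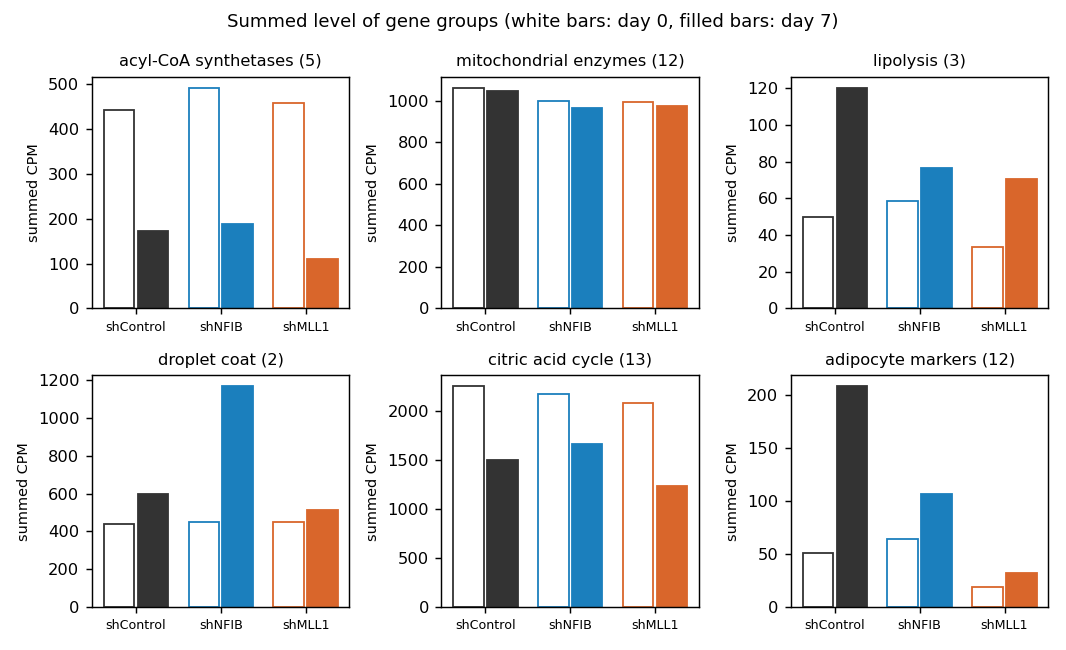
Summed CPM of 4 member groups, of the citric acid cycle genes and of the adipocyte markers in each library, white bars at day 0 and filled bars at day 7, with the number of genes in each title and 1 library per bar. Synthetase sums were lower at day 7 in each line, mitochondrial enzyme sums were level, and the adipocyte marker sum was highest in shControl at day 7.

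The size of the response was also read within each line, day 7 against day 0, where 1 library stands on each side. No test was possible there, and a member was counted where it lay past 2-fold with at least 10 counts in 1 of the 2 libraries. In shControl 8 of 42 members with enough counts were higher and 6 lower (23.0% and 14.9% of all genes). Those higher included Ucp3 (0 and 21 counts) and Ucp2 (4 and 16), and those lower Fabp3 (14 and 1). They met the minimum only through the library where they were high, which in part fixed these counts, and they fell short of it in the other lines. The same holds for Ehhadh (2 and 13 counts), counted as higher in shMLL1. In shNFIB 4 of 39 were higher and 4 lower (16.5% and 13.9% of all genes), and in shMLL1 7 of 39 were higher and 5 lower (25.8% and 19.8%). In each line and in both directions, the share of members past 2-fold was no higher than that of all genes.

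Pdk4, Angptl4, Fabp5 and Acsl3 lay past 2-fold in all 3 lines. For Pdk4 the log2 fold change was 5.58 (95% counting interval 5.31 to 5.86) in shControl, 4.45 (4.31 to 4.60) in shNFIB and 5.44 (5.14 to 5.77) in shMLL1. Fabp5 was lower by -2.21 (-2.39 to -2.03), -2.69 (-2.89 to -2.50) and -4.21 (-4.43 to -3.99) in the same order. The interval covers counting error only and not the spread between cultures, so differences between the lines were not tested.

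Acsl3 was alike in the lines, at -2.72, -2.87 and -2.55 in shControl, shNFIB and shMLL1. Other members differed more. Lipe had a log2 fold change of 2.04 in shControl and 1.75 in shMLL1 but 0.51 (0.29 to 0.74) in shNFIB. Lpin1 was at 3.27 (3.10 to 3.46) in shMLL1 against 1.75 in shControl and 0.96 in shNFIB. Cat was at 2.05 (1.97 to 2.12) in shMLL1 against 0.43 in shControl and 0.90 in shNFIB.

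Plin2 stood out in the other direction, at 1.95 (1.91 to 1.98) in shNFIB against 0.83 in shControl and 0.04 in shMLL1. Acsl1 was at -0.58 (-0.72 to -0.45) in shControl against -1.90 in shNFIB and -1.42 in shMLL1. For Mgll the value was -1.95 (-2.17 to -1.74) in shNFIB, -1.13 in shControl and -0.07 (-0.53 to 0.40) in shMLL1.

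**Figure D4:**
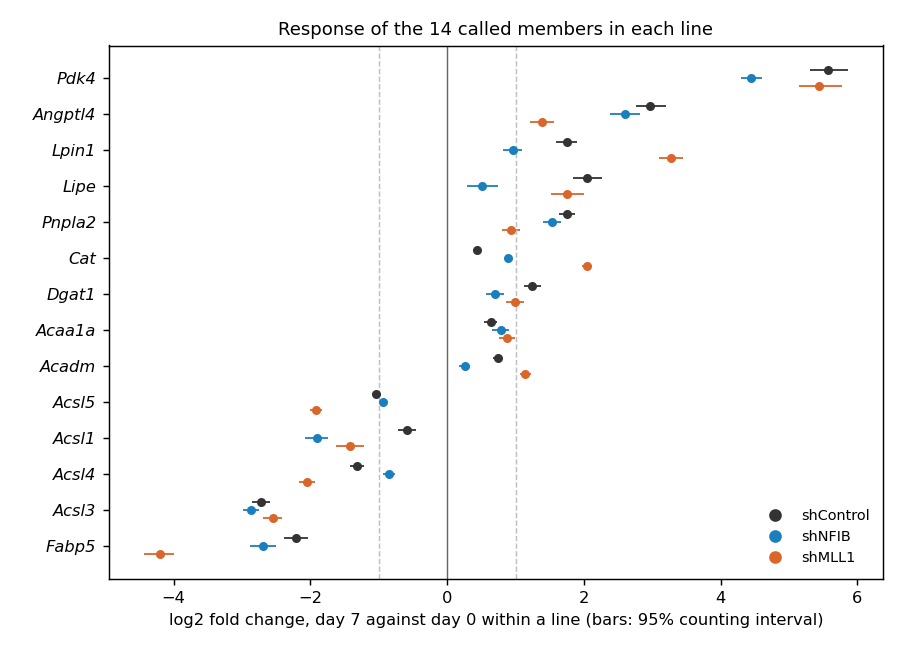
log2 fold change at day 7 against day 0 within each line for the 14 members called over the lines, 1 point per line with the 95% counting interval, and dashed lines at 2-fold. All points of a gene lie on the same side of 0, with the lines furthest apart for Lpin1, Fabp5, Cat and Angptl4.

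The knockdowns were compared with shControl to ask which members differed when NFIB or MLL1 was depleted. With the day as a covariate and 2 libraries per line, no member passed edgeR's quasi-likelihood test at an adjusted p under 0.05 in either knockdown. For shNFIB 5 of the 39 members had an unadjusted p under 0.05 in that test, near the 12.5% of all genes that did. The smallest adjusted p was 0.192. DESeq2 called 2 members, and the share of all genes it called was not computed. Over all genes edgeR called 0.113% higher and 0.263% lower. For shMLL1 4 of the 39 members had an unadjusted p under 0.05, near the 9.28% of all genes that did. The smallest adjusted p was 0.119, and DESeq2 called 2, again without a share of all genes. Over all genes edgeR called 0.0119% higher and 0.0179% lower. The hairpin targets themselves did not pass (adjusted p = 0.140 for Nfib in shNFIB and 0.149 for Kmt2a in shMLL1), so a miss in this design says little about a single gene.

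Library against library, shNFIB held 1 member past 2-fold above and 2 past 2-fold below shControl at day 0 (7.26% and 6.32% of all genes), and 1 higher and 5 lower at day 7 (8.07% and 13.2%). In shMLL1, 2 members were higher and 5 lower at day 0 (11.0% and 9.34% of all genes), and 1 higher and 7 lower at day 7 (8.59% and 6.95%). Both knockdowns were set against the same shControl libraries. Several of these members rested on few counts, among them Fabp3, Ucp2, Ucp3 and Ehhadh, whose counts are given above.

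Among the members with ample counts, Dgat2 was the one that lay more than 2-fold lower in both knockdowns on both days. It was at 23.1 CPM in shControl, 10.7 in shNFIB and 9.24 in shMLL1 at day 0, and at 24.4, 10.1 and 5.29 CPM at day 7. The shControl level hardly differed between the days, and no knockdown library reached it. Over both days the log2 fold change was -1.20 ± 0.31 in shNFIB (adjusted p = 0.192) and -1.74 ± 0.32 in shMLL1 (adjusted p = 0.119).

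Mgll was lower in shMLL1 than in shControl on both days, by log2 values of -2.57 (-2.91 to -2.25) at day 0 and -1.51 (-1.91 to -1.12) at day 7. In shNFIB it was higher at day 0, at 0.74 (0.59 to 0.90), and level at day 7, at -0.07 (-0.34 to 0.19). Over both days shMLL1 was at -1.98 ± 0.46 (adjusted p = 0.209). Agpat2, the acyltransferase that makes phosphatidate, was at 21.2, 31.6 and 14.4 CPM at day 0 and at 33.6, 30.3 and 11.3 CPM at day 7. It was lowest in shMLL1 on both days, with -1.08 ± 0.31 over both days (adjusted p = 0.300).

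In shNFIB, Pdk4 was higher than in shControl by a log2 value of 1.81 (1.51 to 2.13) at day 0 and 0.69 (0.64 to 0.74) at day 7, and over both days by 1.25 ± 0.32 (adjusted p = 0.192). Cpt1a was higher by 0.90 (0.83 to 0.96) and 0.76 (0.68 to 0.84), and over both days by 0.83 ± 0.23 (adjusted p = 0.225). Acadl was at 83.5, 128 and 127 CPM at day 0 and at 72.8, 133 and 76.2 CPM at day 7. It was higher than in shControl in both shNFIB libraries and in shMLL1 at day 0, with 0.75 ± 0.26 over both days in shNFIB (adjusted p = 0.316). Acaa1a was lower in shNFIB on both days, with -0.71 ± 0.22 (adjusted p = 0.257).

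At day 7 the shNFIB library also held more Plin2, at 1.25 (1.22 to 1.28), and less Lipe, at -1.20 (-1.38 to -1.03), than the shControl library. Acsl1 was lower in both knockdowns at day 7, at -1.04 (-1.22 to -0.85) in shNFIB and -1.17 (-1.38 to -0.97) in shMLL1. In shMLL1 at day 0, Fabp5 was higher by 1.55 (1.46 to 1.64), Angptl4 by 1.08 (0.83 to 1.34), and catalase was lower by -1.04 (-1.11 to -0.96). At day 7 these differences had the other sign, at -0.45, -0.51 and 0.57. Hsd17b4 was lower in shMLL1 at both days, with -0.67 ± 0.22 over both (adjusted p = 0.394).

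**Figure D5:**
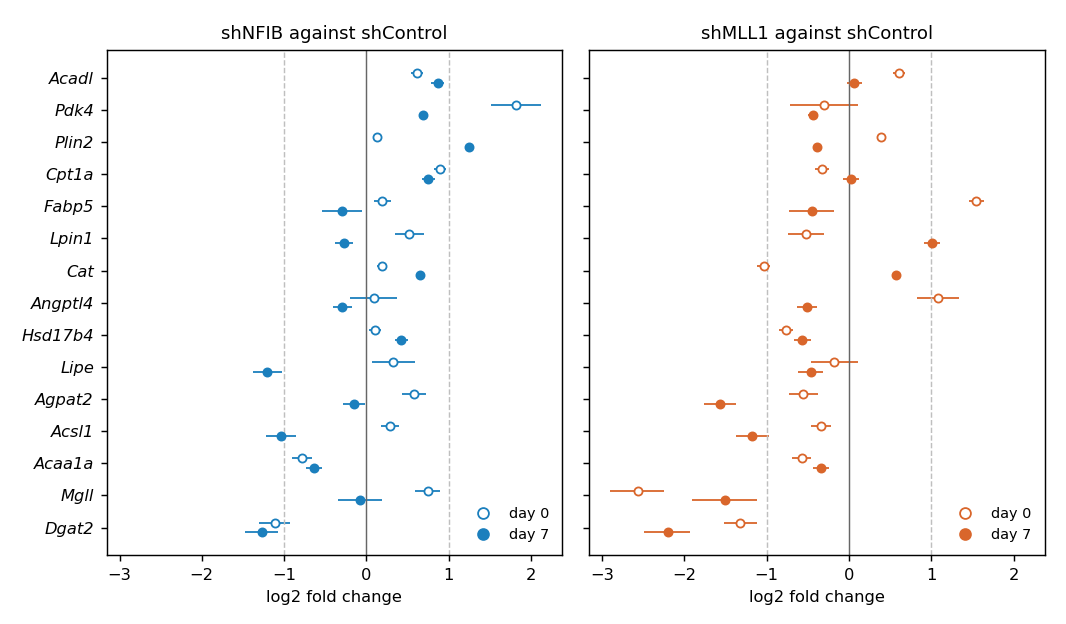
log2 fold change of each knockdown against shControl for members with at least 10 counts in every library that were past 2-fold in a pair of libraries or had an unadjusted p under 0.05, open at day 0 and filled at day 7. Bars are 95% counting intervals and dashed lines mark 2-fold. The Dgat2 points lie beyond 2-fold lower in both panels.

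The rest of the pathway was read from lists of genes that are not members. Of 26 other fatty acid oxidation genes 25 were tested, and 7 rose and 2 fell at day 7, where 16.8% of all genes rose and 16.5% fell. Cpt1b, the muscle form of carnitine palmitoyltransferase 1, rose by 1.85 ± 0.41 from a low level (0.47, 0.54 and 0.60 CPM at day 0 and 1.84, 1.52 and 2.58 CPM at day 7). Acacb, which makes the malonyl-CoA that inhibits that transferase, rose by 1.85 ± 0.38, furthest in shControl, from 2.97 to 16.0 CPM. Abcd2, a peroxisomal importer of very long chains, rose by 1.18 ± 0.26, and the mitochondrial thioesterase Acot2 fell by 1.45 on the log2 scale.

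All 4 other uptake genes were tested. Slc27a3 and Slc27a1, which encode fatty acid transport proteins, rose by 1.40 ± 0.37 and 1.05 ± 0.23, and Got2, a mitochondrial aminotransferase also described as a fatty acid binding protein of the plasma membrane, fell by 0.84 on the log2 scale. Slc27a4 was at -0.27 ± 0.18. Of 22 other genes of triglyceride turnover 18 were tested, and 4 rose and 2 fell. Lpin3, a paralog of Lpin1, was at 3.26, 4.40 and 1.95 CPM at day 0 and at 24.8, 44.9 and 36.2 CPM at day 7 (log2 fold change 3.48 ± 0.30, adjusted p = 0.000707). The days were far apart in all 3 lines.

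Plin4, a droplet coat protein, rose by 2.48 ± 0.40. Gpat3, a glycerol-phosphate acyltransferase, had a log2 fold change of -1.27 ± 0.61 and did not pass. G0s2, the inhibitor of adipose triglyceride lipase, was at 9.89, 0 and 0.13 CPM at day 0 and at 7.97, 0.03 and 1.80 CPM at day 7. It was highest in shControl on both days and did not pass by day (adjusted p = 0.287).

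Among the other pyruvate dehydrogenase kinases and phosphatases, 1 of 5 rose and 1 fell. Pdk2, a kinase like Pdk4, rose by 1.33 ± 0.28 and Pdk3 fell by 1.14 on the log2 scale, while the phosphatase Pdp1 (1.09 ± 0.37) and Pdk1 (-0.75 ± 0.34) did not pass. Of the 14 transcriptional regulators 12 were tested, and 2 rose and 1 fell. Ppargc1a, the co-activator that drives mitochondrial genes, was at 13.0, 2.09 and 14.05 CPM at day 0 and at 44.3, 30.5 and 32.4 CPM at day 7 (log2 fold change 2.21 ± 0.49, adjusted p = 0.0162). Klf15, a factor induced by glucocorticoids, rose by 1.48 ± 0.27.

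Nr3c1, the glucocorticoid receptor, was at 145, 172 and 108 CPM at day 0 and at 44.5, 102 and 74.3 CPM at day 7 and fell by 0.99 on the log2 scale (adjusted p = 0.0284). Foxo3, a forkhead factor, was at 0.76 ± 0.26 and did not pass. Ppara, the PPAR of liver and heart, was at or below 0.16 CPM in each library, and Ppard, the widely expressed PPAR, was between 29.9 and 48.1 CPM (log2 fold change 0.13 ± 0.17). Ppargc1b was at or below 3.55 CPM.

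The citric acid cycle takes up the acetyl-CoA that β-oxidation makes. All 13 of its genes were tested, none rose and 6 fell (16.8% and 16.5% of all genes), with a median log2 fold change of -0.55. Cs, citrate synthase, was at 334, 294 and 271 CPM at day 0 and at 145, 163 and 98.9 CPM at day 7 (log2 fold change -1.17 ± 0.22, adjusted p = 0.00850). Mdh2, Idh3a and Sdhb fell by 0.95, 0.91 and 0.75 on the log2 scale. These falls stood beside a median near 0 in the 12 mitochondrial β-oxidation enzymes, and the difference between the lists was not tested.

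Many members are also expressed in adipocytes, and markers of adipocytes moved with the day and the line. Of 12 markers 8 were tested and 5 rose, and their summed level was 51.0, 63.9 and 18.8 CPM in shControl, shNFIB and shMLL1 at day 0 and 208, 106 and 32.2 CPM at day 7. Cfd, encoding adipsin, had no count at day 0 and 69.8, 0.74 and 1.84 CPM at day 7 (lower limit of the 95% counting interval for the log2 fold change in shControl 9.24). Cidec and Plin1, droplet proteins of adipocytes, likewise had no count at day 0, and were at 22.3, 0.17 and 0.70 CPM and at 15.5, 0.30 and 1.15 CPM at day 7. Lpl, encoding lipoprotein lipase, was at 0.19, 0.22 and 0 CPM at day 0 and at 35.6, 0.74 and 0.16 CPM at day 7. Cfd, Cidec, Plin1 and Lpl thus passed the filter on low counts only through day 7 libraries where they were high. This in part fixed the count of markers that rose, which cannot be set against the share of all genes.

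Pparg, the adipocyte master regulator, was at 27.1, 52.2 and 12.0 CPM at day 0 and at 42.0, 84.2 and 20.9 CPM at day 7, highest in the shNFIB libraries, as was Plin2 at day 7. Cd36, a fatty acid translocase, was at 0, 0.25 and 0.56 CPM at day 0 and at 2.92, 11.8 and 0.04 CPM at day 7. Retn and Lep reached 117 and 20 counts in shControl at day 7, and other libraries had 3 or fewer. Adipoq, a defining marker of mature adipocytes, had at most 1 count in any library, Fabp4 stayed between 3.58 and 4.84 CPM, Car3 was at or below 0.69 CPM, and Cebpa was highest in shControl at day 0, at 19.0 CPM.

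Of the members that rose, Lipe, Pnpla2, Dgat1, Angptl4, Acadm and Acaa1a had their highest level in shControl at day 7. Pdk4 and Cat were highest in shNFIB and Lpin1 in shMLL1. The adipocyte markers were divided as well. Cfd, Cidec, Plin1, Lpl, Retn and Lep were highest in shControl at day 7, and Pparg and Cd36 in shNFIB at day 7. Cebpa was highest in shControl at day 0, Fabp4 stayed within a narrow range, and Adipoq and Car3 were low or absent throughout. The part of these markers in the members' values was not tested. Without the shControl line the adjusted p of 6 risers no longer passed (Acaa1a, Acadm, Cat, Dgat1, Lipe and Pnpla2), 3 risers remained (Pdk4, Angptl4 and Lpin1), and all 5 members that fell were still called. The log2 fold changes of Lipe and Pnpla2 were then 1.08 and 1.19. The fit without shControl has 1 residual degree of freedom, against 2 with all lines, so a lost call need not mean a smaller change. Of 7 skeletal muscle markers 2 were tested and 1, Acta1, fell from at most 2.10 CPM, and Tnnt3 was below 1 CPM throughout. Of 8 osteoblast markers 5 were tested and 1, Alpl, rose (0.22, 0.25 and 0 CPM at day 0 and 3.64, 7.27 and 0.08 CPM at day 7), while Spp1, Dmp1, Runx2 and Col1a1 did not pass over the lines. Alpl passed the filter on low counts only through shControl and shNFIB at day 7, where it was high, which in part fixed its rise. In shControl, 6 of 6 osteoblast markers with at least 10 counts in either library were past 2-fold higher at day 7 (median log2 fold change 2.09). In each knockdown 1 of 4 was. Among all genes the shares were 23.0% in shControl, 16.5% in shNFIB and 25.8% in shMLL1. Only 3 osteoblast markers had at least 10 counts in shControl or shNFIB at day 0. Others of the 6 therefore entered only through the day 7 library where they were high, which in part fixed that count. The summed level of the list was 1294 CPM at day 0 and 4029 CPM at day 7 in shControl, 1379 and 1540 CPM in shNFIB, and 1363 and 1722 CPM in shMLL1. Runx2, Alpl and Bglap made up little of these sums, which follow the most abundant genes and not the list as a whole. The part of the osteoblast markers in the members' values was not tested either.

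Reads of overlapping genes limit some values, since a strand setting of the counting is not given in the sources used here. Exons of Acsl1, Acsl5, Acsl6, Acadvl, Echs1, Hadha, Eci2, Etfdh, Acaa1a, Ucp2, Fabp3, Lipe, Mgll and Agpat2 overlap annotated exons on the other strand, over 1151 bases for Acadvl (with Dvl2), 1039 bases for Acsl1 and 918 bases for Lipe. Acsl3 and Etfb share 244 and 678 bases with genes on the same strand. Acaa1a has a close paralog, Acaa1b, with which reads may be shared.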

How the data were processed

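RNA-seq of 6 C3H10T1/2 libraries was analysed, 1 per condition. Per the labels, the authors used Trimmomatic 0.39 to trim reads, HISAT2 2.2.1 to align them (GRCm38, mm10), SAMtools 1.12 and HTSeq 0.11.1. By the study's methods, reads of low mapping quality and PCR duplicates were removed before counting, which can lower the counts of highly expressed genes. The deposited values are raw counts per gene, without normalization. From them, TMM factors, CPM and RPKM (union of GENCODE M21 exons) were computed in edgeR 4.0.16 under R 4.3.3. Over all genes kept by filterByExpr, edgeR's quasi-likelihood test was fitted with line and day as terms, with Benjamini-Hochberg adjustment over all 16742 genes. The standard error (SE) is the log2 fold change over the root of F. The line pairs the days, because both come from the same derivative cells (correlation of deviations 0.424, 0.427 and 0.273). DESeq2 1.42.0, other scalings, no filter, no block and each line left out were alternatives. Fold changes of library pairs used a prior count of 0.125 and exact Clopper-Pearson intervals at 95%. Intervals cover counting error only. The members, the lists and the rule for named genes (all members, the hairpin targets, the adipocyte markers, up to 4 genes of each other list with the largest day effect, and set regulators) were chosen with earlier results of these data known. A few further genes of the marker lists were named after their values were seen. Figures were drawn with matplotlib 3.10.9 under Python 3.11.15.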

Additional observations from a re-analysis of the deposited data

How the results depend on the processing

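The 14 members called by day were the same 14 with DESeq2 size factors and with library size alone, and Mgll and Plin2 joined them without the filter and in the DESeq2 test. Without the line as a block 11 remained, and Acaa1a, Acadm and Cat were lost. Leaving out a line gave between 3 (without shControl) and 8 members that rose. In shNFIB against shControl, no filter and DESeq2 each called 1 member higher (Pdk4) and 1 lower (Dgat2), and leaving out a line gave between 0 and 1 lower, 1 without shMLL1. In shMLL1 against shControl, no filter, DESeq2 and leaving out the shNFIB line each called 2 lower (Dgat2 and Mgll), so that leaving out a line gave between 0 and 2. Without the minimum of 10 counts 2 members, not 1, were past 2-fold higher in shMLL1 at day 7. Scaling by library size alone moved the median of all genes by 0.13 (log2) in the day comparison and the share of risers among all calls from 50.5% to 60.8%, and turned uncalled values of Echs1 (0.087), Etfdh (0.0090), Hadh (0.032) and Hadhb (0.059). Leaving out a line turned other uncalled day values, whose range was -0.026 to 0.20 for Eci2, -0.12 to 1.47 for Ehhadh, -0.097 to 0.17 for Eci1, -0.037 to 0.22 for Plin3, -0.20 to 0.093 for Echs1, -0.25 to 0.27 for Agpat2, -0.064 to 0.18 for Acads, -0.047 to 0.15 for Etfa and -0.19 to 0.0061 for Hadhb. The cause was not tested. With 1 library per condition, differences between lines in the change from day 0 to day 7 have no replicate check, and depth limits the statements on Acsl6, Ucp2, Ucp3, Fabp3 and Ehhadh.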
